A study of Mus musculus with 6 samples.

Results

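Microglial barcodes of metastasis-bearing Cx3cr1+/- mice and of metastasis-bearing Cx3cr1-/- mice were each compared with those of the library labelled as replicate 2 of unmodified naive mice, and the genes that changed alike in both mutant libraries were collected. Members were barcodes with at least 400 detected genes, under 10% mitochondrial transcripts and at least 3 transcripts of 8 microglial markers (P2ry12, Tmem119, Siglech, Sall1, Gpr34, Fcrls, Olfml3 and Slc2a5). The rule gave 153 barcodes in the library labelled naive 2, 231 in the heterozygous library and 153 in the null library. These 537 barcodes were selected from 592 that passed the first 2 limits and from 3000 deposited barcodes in the 3 libraries, of 6000 in the series. They made up 84.5% of the barcodes that passed those limits in the library labelled naive 2, 92.0% in the heterozygous library and 95.6% in the null library. Just inside the marker threshold, at 3 transcripts, stood 10, 12 and 7 barcodes, and just outside it, at 2, stood 10, 11 and 2.

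Brain cells enriched for Cd11b, from female mice on C57BL/6 between 2 and 3 months old, were profiled by Drop-seq. In this droplet assay a barcode marks the cell of origin, and a unique molecular identifier (UMI) lets each transcript be counted once. The naive-labelled library came from 1 brain without metastases, per its label. The heterozygous library (strain label Cx3cr1+/- C57BL/6) and the null library (Cx3cr1-/- C57BL/6) each came from 2 pooled brains with metastases, taken 2 to 3 weeks after E0771, a mammary carcinoma line of the mouse, was injected into the heart. All 3 were sequenced on a NextSeq. The other libraries were naive 1 and metastasis 1, sequenced on a HiSeq, and metastasis 2, each from 1 brain of unmodified C57BL/6 mice. The labels name no reporter or Cre for the Cx3cr1 alleles.

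The comparison has several built-in limits. Both mutant libraries carry metastases and a Cx3cr1 mutation while the reference is labelled as carrying neither, so genotype and metastasis cannot be told apart. Each group is 1 library, so no test and no replicate check could be made, and both comparisons share the same reference. The name of the deposited table of this reference reads metastasis replicate 2, the opposite of its label (WT Rep 2), and the tables of the other 3 unmodified libraries are swapped in the same way. Transcripts of Rhox5 and Esx1, taken here as carcinoma transcripts, were counted over all deposited barcodes as a check. The library labelled naive 2 held 27 UMIs of Rhox5 and 37 of Esx1, the heterozygous library 33 and 55, and the null library 11 and 19. Naive 1 and the library labelled metastasis 2 held 0 of both, and metastasis 1 held 1340 and 524. Other listed carcinoma markers differed. Sdc1 had 22 UMIs in the library labelled naive 2 and 0 in naive 1, and Lcn2 had 607 and 72. In the same order Krt8 had 15 and 16, Krt18 3 and 23, and Epcam 9 and 35. Cldn4 had 0 and 3, Cldn7 0 and 6, and Wfdc2 1 and 2. In metastasis 1 Krt18, Epcam, Cldn4 and Cldn7 had 1, 7, 3 and 0. The Rhox5 and Esx1 transcripts in the library labelled naive 2 go against its label, and the other markers do so only in part. This library is called the naive-labelled library below. The library labelled metastasis 2, with 74 microglial barcodes, was used as an alternative reference. In metastasis 1 the rule gave 237 barcodes, 23.9% of those that passed the first 2 limits. Their median was 4 marker UMIs, and 76 of them stood at 3. They held 362 UMIs of Rhox5 and 172 of Esx1, so the metastasis 1 levels below come from barcodes that also carry carcinoma transcripts.

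CX3CR1 is the microglial receptor for fractalkine, a chemokine that neurons carry on their surface, and it holds microglia in contact with their surroundings. Microglia answer interferons with a shared set of transcripts, and many of those genes are controlled by factors of the STAT and IRF families that bind the interferon-stimulated response element. Endothelial cells of brain vessels carry a different set of genes, among them claudin 5 of the tight junction and collagen IV of the basement membrane.

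The 3 compared libraries held 1622472, 2376501 and 1764092 UMIs over all barcodes, and 712454, 1196058 and 631889 over microglial barcodes, in the order naive-labelled, heterozygous and null. The median microglial barcode held 3050, 4200 and 3355 UMIs. Over deposited barcodes the mitochondrial share had a median between 19.3% and 20.3%, and the 10% limit removed 687, 746 and 831 barcodes. The naive-labelled library and the null library shared 1 barcode, which was not counted as microglia in both. The markers used for selection were present by construction and are not a result.

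Cx3cr1 itself was nearly absent from the null library and lower in the heterozygous library than in the reference. Over microglial barcodes its level was 4033 CPM (UMIs of the gene per 1000000 summed microglial UMIs of the library) in naive 1, 570 in metastasis 1, 1547 in the naive-labelled library, 4248 in the library labelled metastasis 2, 1092 in the heterozygous library and 49.1 in the null library. The null library was the lowest of the 6 and held 31 UMIs in 25 barcodes. The log2 ratio to the naive-labelled library was -0.50 in the heterozygous library (95% interval -0.62 to -0.39) and -4.98 in the null library (-5.54 to -4.46). These intervals, like all others here, cover counting error only. The gene lies on chromosome 9 at 119901616 to 120069879 of GRCm38 (minus strand).

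Of 7026 genes with at least 50 UMIs over the 3 libraries, 74 were at least 2-fold higher and 138 at least 2-fold lower in both mutant libraries. These are 1.05% and 1.96% of the genes tested. Taken alone, the heterozygous library was 2-fold higher for 2.93% of the genes and 2-fold lower for 3.71%, and the null library for 2.59% and 5.37%. The median log2 ratio of all tested genes was 0.03 in the heterozygous library and -0.03 in the null library. A further 7 genes passed the fold in opposite directions.

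**Figure D1:**
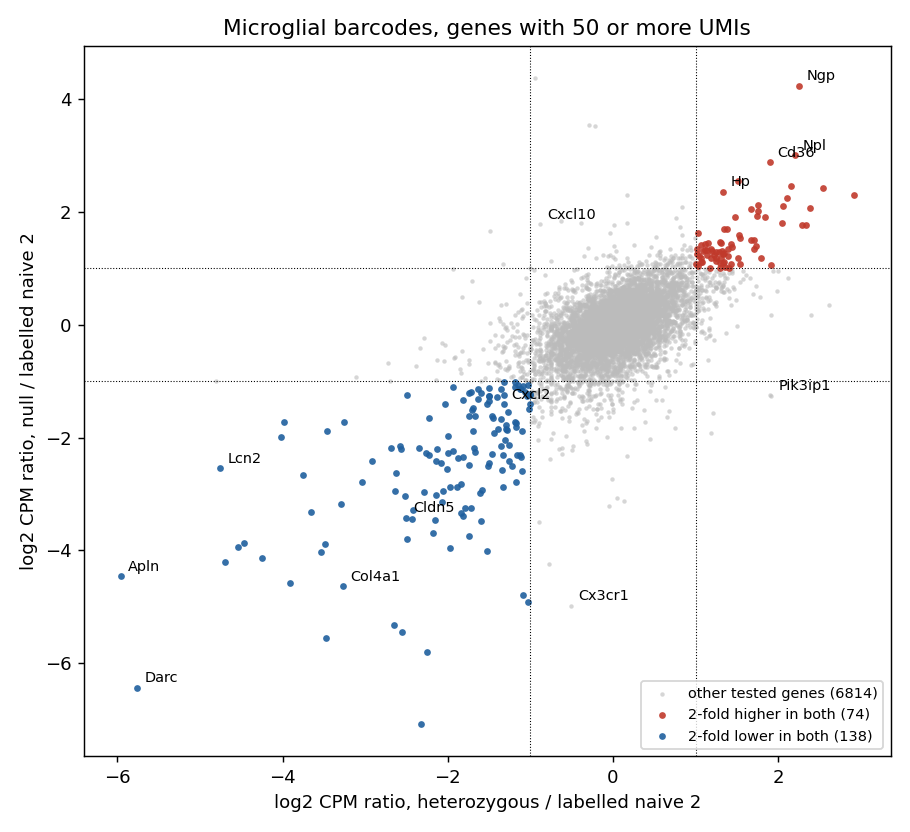
Log2 CPM ratio of each tested gene over microglial barcodes, heterozygous library (horizontal axis) and null library (vertical axis) against the naive-labelled library, with dotted lines at 2-fold. The 74 genes higher in both lie at the upper right and the 138 genes lower in both at the lower left. Both axes share the naive-labelled library, so the slope of the cloud is not a result.

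The genes higher in both were mostly of low count. Their median UMI count was 9 in the naive-labelled library, 40.5 in the heterozygous library and 21.5 in the null library, and 54 of the 74 had fewer than 100 UMIs over the 3 libraries together. The counting intervals lay above 0 in both mutant libraries for 54 of the 74, and wholly past 2-fold for 3. The median log2 ratio over the 74 was 1.35 in the heterozygous library and 1.34 in the null library.

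Npl, which encodes the lyase that breaks down sialic acid, was the best counted of the 12 leading genes. Its level was 59.2 CPM in naive 1, 21.7 in metastasis 1, 39.3 in the naive-labelled library (28 UMIs), 79.6 in the library labelled metastasis 2, 181 in the heterozygous library (217 UMIs) and 313 in the null library (198 UMIs). Both mutant libraries stood above the other 4. The log2 ratio was 2.21 in the heterozygous library (1.63 to 2.83) and 3.00 in the null library (2.42 to 3.62). No 3 barcodes held more than 22.7% of its UMIs in a mutant library. Npl lies on chromosome 1 at 153503015 to 153550045 of GRCm38 (minus strand).

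Hp, which encodes the haemoglobin-binding protein haptoglobin, ranked below the leading 12 and was singled out after its values were seen. It stood at 4.84, 43.4, 18.2 and 5.69 CPM in naive 1, metastasis 1, the naive-labelled library and the library labelled metastasis 2, and at 46.0 and 93.4 CPM in the heterozygous and null libraries. The heterozygous value was close to that of metastasis 1. In each mutant library 3 barcodes held over 50% of the Hp UMIs (58.2% and 54.2%).

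Among the other leading genes, Cd36, a scavenger receptor for fatty acids and lipoproteins, was at 11.2 CPM in the naive-labelled library, 41.8 in the heterozygous library and 82.3 in the null library. Naive 1 stood at 49.6 CPM, metastasis 1 at 39.8 and the library labelled metastasis 2 at 11.4, so the 2 libraries labelled replicate 2 were the low ones. In the null library 63.5% of the Cd36 UMIs came from 3 barcodes. Plxna4, a semaphorin receptor, had 3, 38 and 13 UMIs and log2 ratios of 2.92 and 2.29. Fzr1, an activator of the anaphase-promoting complex, had 6, 45 and 29 UMIs and log2 ratios of 2.16 and 2.45.

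Mrps31, a protein of the mitochondrial ribosome, had 4, 39 and 19 UMIs in the naive-labelled, heterozygous and null libraries and log2 ratios of 2.54 and 2.42. Bcl9, a co-activator of beta-catenin, had log2 ratios of 2.06 and 2.10 from 5, 35 and 19 UMIs. Mfsd11, of a transporter family, had 2.04 and 1.79, and Cnrip1, which binds the cannabinoid receptor, had 2.29 and 1.76. The non-coding transcript G530011O06Rik stood at 23.9, 125 and 99.7 CPM in the same order. Naive 1 and metastasis 1 held 117 and 119 CPM of it and the library labelled metastasis 2 held 381, so the naive-labelled library was again the low one.

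Several leading genes rested on few barcodes. Ngp, a granule protein of neutrophil precursors, was at 0 UMIs in the naive-labelled library, 24 in the heterozygous library and 50 in the null library. With the 0 set to 3 counts, its log2 ratio was 2.25 and 4.23, and the counting intervals began at 1.84 and 3.88. A single barcode of the null library held 96% of the Ngp UMIs. That barcode also held 502 of 522 S100a9 UMIs and 1183 UMIs of the 11 neutrophil markers, beside 6 UMIs of the selection markers. Ms4a4b, a membrane protein of T and NK cells, had 72.2% of its heterozygous and 66.7% of its null UMIs in 3 barcodes. Summed neutrophil markers stood at 727 CPM in the naive-labelled library, 337 in the heterozygous library and 2133 in the null library, and their part in the higher set was not tested.

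Of 13 tested chemokine genes, 1 was higher and 1 lower in both mutant libraries, against 1.05% and 1.96% of all genes. In the null library alone 6 were 2-fold higher and 1 lower, against 2.59% and 5.37%, and in the heterozygous library alone 1 was higher and 2 were lower, against 2.93% and 3.71%. The median log2 ratio was 0.17 in the heterozygous library and 0.33 in the null library. The summed list had log2 ratios of 0.23 (0.19 to 0.27) and -0.15 (-0.20 to -0.10). The null median was -0.31 without barcodes with at least 5 endothelial UMIs and 0.52 with that limit at 10, both chosen after seeing the data. Ccl7, which attracts monocytes, was at 442 CPM in naive 1, 192 in metastasis 1, 18.2 in the naive-labelled library, 22.7 in the library labelled metastasis 2, 65.2 in the heterozygous library and 68.0 in the null library. The mutant values lay between those of the replicate 1 and replicate 2 libraries. In the heterozygous library 65.4% and in the null library 79.1% of the Ccl7 UMIs came from 3 barcodes, and without barcodes with at least 5 endothelial UMIs the null log2 ratio was -0.45.

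Cxcl2, a neutrophil attractant, was lower in both mutant libraries than in each of the other 4. It stood at 1054, 1387, 688 and 893 CPM in naive 1, metastasis 1, the naive-labelled library and the library labelled metastasis 2. The heterozygous library had 277 CPM and the null library 260. The log2 ratios to the naive-labelled library were -1.31 (-1.52 to -1.11) and -1.41 (-1.67 to -1.15). Of the 138 genes lower in both, Cxcl2 was the 1 that was called lower against naive 1 and also against the library labelled metastasis 2. It was chosen from the chemokine list and singled out for this after its values were seen. It was not among the 2 lower genes called under all 13 settings described further below. In the heterozygous library 3 barcodes held 67.4% of the Cxcl2 UMIs, in the null library 50.6% and in the naive-labelled library 39.2%.

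Cxcl10, an interferon-induced ligand of CXCR3, was lower in the heterozygous library and higher in the null library than in the reference. Its level was 261 CPM in naive 1, 446 in metastasis 1, 244 in the naive-labelled library, 11.4 in the library labelled metastasis 2, 132 in the heterozygous library and 839 in the null library. The log2 ratio was -0.89 in the heterozygous library (-1.21 to -0.57) and 1.78 in the null library (1.53 to 2.04). In the naive-labelled library 3 barcodes held 65.5% of the 174 Cxcl10 UMIs. The null library was the highest of the 6, and 1 barcode held 371 of its 530 Cxcl10 UMIs. The same barcode, with 34456 UMIs in all and 80 of the selection markers, held 224 UMIs of the monocyte attractant Ccl2 (69.1% of the library's) and 669 of type I interferon response genes. Without barcodes with at least 5 endothelial UMIs, a limit chosen after seeing the data, the null log2 ratio of Cxcl10 was -0.12.

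**Figure D2:**
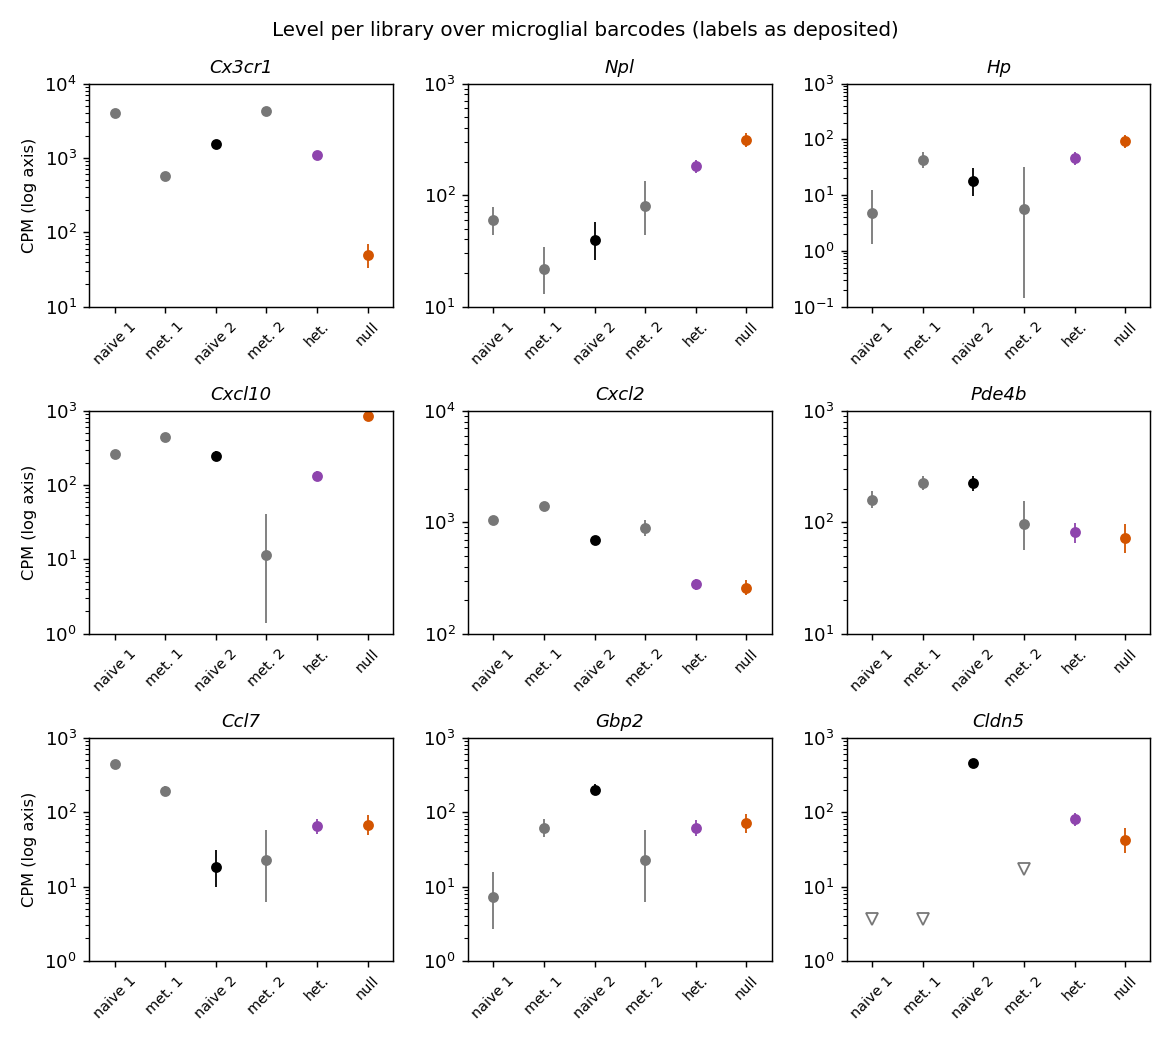
CPM (log axis) of 9 genes over the microglial barcodes of each of the 6 libraries, under their deposited labels, with 95% counting intervals. Open triangles mark 0 UMIs and are drawn at the level that 3 UMIs would give. Npl is highest in both mutant libraries, at 181 and 313 CPM, Cxcl2 is lowest there, at 277 and 260 CPM, and Cldn5 is highest in the naive-labelled library, at 456 CPM.

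Type I interferon response genes were read against their promoters. The motif GAAANNGAAA, the core of the interferon-stimulated response element, was searched on both strands in the 250 bases before each start in RefSeq (GRCm38.p6), and overlapping matches were counted separately. It was present before 13 of the 26 list members with a RefSeq promoter (50%), against 3.46% of all 27025 genes with one. Of the genes changed alike, 1 of 58 higher genes (1.72%) and 3 of 91 lower genes (3.30%) with a promoter held it. The promoters of 3 genes are shown, with matches in capitals, because the levels of Cxcl10 are given above and those of the other two follow. They are Isg15 (chr4:156200819-156201068, minus strand, with 3 matches, the most in the list), Ifit3 (chr19:34583279-34583528, plus strand, 2 matches) and Cxcl10 (chr5:92348890-92349139, minus strand, 1 match), each printed 5′ to 3′ toward the start.
Isg15: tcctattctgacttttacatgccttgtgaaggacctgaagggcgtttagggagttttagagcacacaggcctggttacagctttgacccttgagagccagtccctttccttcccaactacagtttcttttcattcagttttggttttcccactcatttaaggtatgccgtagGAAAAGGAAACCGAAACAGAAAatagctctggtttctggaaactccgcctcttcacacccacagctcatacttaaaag
Ifit3: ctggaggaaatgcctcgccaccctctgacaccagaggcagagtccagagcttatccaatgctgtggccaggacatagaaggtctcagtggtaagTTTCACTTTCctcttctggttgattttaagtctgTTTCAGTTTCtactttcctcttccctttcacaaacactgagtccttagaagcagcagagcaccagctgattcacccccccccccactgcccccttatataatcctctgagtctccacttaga
Cxcl10: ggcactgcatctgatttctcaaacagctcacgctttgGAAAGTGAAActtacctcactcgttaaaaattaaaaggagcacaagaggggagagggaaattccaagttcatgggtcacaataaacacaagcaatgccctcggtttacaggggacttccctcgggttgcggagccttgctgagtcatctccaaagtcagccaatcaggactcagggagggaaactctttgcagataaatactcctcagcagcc
The matches in Ifit3 are on the opposite strand, so they read as the reverse complement of the motif. A match describes the letters only.

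In the heterozygous library the type I interferon list was lower than in the naive-labelled library, and in the null library it was not. Of 31 tested members, 27 had a log2 ratio below 0 in the heterozygous library and 14 were 2-fold lower, with a median of -0.96. In the null library 16 were above 0 and 15 below, with a median of 0.04. The summed list stood at 1492 CPM in naive 1, 4800 in metastasis 1, 6614 in the naive-labelled library, 1246 in the library labelled metastasis 2, 3765 in the heterozygous library and 6902 in the null library. No member passed the fold alike in both.

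Isg15, a ubiquitin-like protein, was at 160 CPM in the naive-labelled library, 45.1 in the heterozygous library and 225 in the null library. Naive 1, metastasis 1 and the library labelled metastasis 2 stood at 60.4, 144 and 34.1 CPM. Ifit3, which restricts viral RNA, was at 185, 66.1 and 190 CPM in the compared libraries and at 14.5, 111 and 5.69 CPM in the other 3, in the same orders. Ifitm3, a membrane protein that blocks virus entry and the list's best counted member, was at 1343, 540 and 1003 CPM. Ifi27l2a, the next best counted, was at 431, 431 and 983 CPM.

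Many of this list's UMIs in the naive-labelled library lay in 2 barcodes. These held 2142 of its 4712 type I interferon UMIs (45.5%), against 10.4% of all its UMIs. In the naive-labelled library 3 barcodes held 62.0% of the Ifitm3, 69.3% of the Isg15 and 78.8% of the Ifit3 UMIs. With at least 5 marker UMIs required, which removed both and others besides (134, 211 and 139 barcodes remained), the median became -0.11 in the heterozygous library and 0.80 in the null library. Leaving out the top 3 barcodes of each gene in each library gave 0.00 and 0.60. Under that setting the median of all tested genes was 0.22 in the heterozygous library and 0.01 in the null library. The heterozygous list median thus stayed below that of all genes.

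Of 21 tested interferon gamma response genes 16 were below 0 in the heterozygous library and 3 were 2-fold lower in both, against 1.96% of all genes, with list medians of -0.50 and 0.08. The same 2 barcodes held 35.3% of the list's naive-labelled UMIs, and with at least 5 marker UMIs the medians were 0.32 and 0.57. The 3 encode guanosine triphosphatases of cell-autonomous defence. Iigp1 stood at 89.8, 6.69 and 14.2 CPM in the naive-labelled, heterozygous and null libraries, Gbp2 at 202, 61.9 and 71.2, and Gbp4 at 49.1, 19.2 and 22.2. In the naive-labelled library 3 barcodes held 90.6%, 87.5% and 94.3% of their UMIs. With at least 5 marker UMIs, the log2 ratio of Gbp2 was 0.98 in the heterozygous library and 1.17 in the null library, the opposite direction. I830012O16Rik, an older name of the type I interferon gene Ifit3b that the list's spelling missed, was also lower in both (log2 ratios of -4.02 and -1.98), with 94.8% of its naive-labelled UMIs in 3 barcodes.

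Antigen presentation genes did not pass the fold. MHC class I members had medians of -0.06 and -0.07 over 9 genes, and B2m, the shared light chain, stood at 6906, 7337 and 8456 CPM in the naive-labelled, heterozygous and null libraries. H2-D1, a class I heavy chain, was at 2247, 2160 and 2136 CPM. MHC class II members had medians of -0.01 and -0.57 over 7 genes. Cd74, the invariant chain, was at 2990, 2622 and 1728 CPM, and H2-Ab1 at 2013, 2134 and 1353 CPM.

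Homeostatic genes outside the selection had medians of 0.13 and 0.19 over 29 genes, none past the fold in both. Cst3, a secreted cysteine protease inhibitor, was at 22247, 27166 and 30160 CPM. Complement and Fc receptor genes had medians of -0.12 and -0.03 over 13 genes, with C1qb, a subunit of C1q, at 7097, 6879 and 6974 CPM. Its neighbour C1qc had log2 ratios of 0.13 and 0.08. Cathepsin and lysosome genes had 0.07 and 0.08 over 24 genes, with Ctss at log2 ratios of 0.24 and 0.33 and Ctsd at 0.13 and 0.02.

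Disease-associated microglia genes had medians of -0.003 and 0.26 over 23 genes, of which 1 was lower in both. This was Gpnmb, a glycoprotein of phagocytes, at 64.6, 5.85 and 17.4 CPM, with 80.4% of its naive-labelled UMIs in 3 barcodes. Apoe, a lipid carrier, had log2 ratios of -0.73 and -0.50, and Fth1, the ferritin heavy chain, -0.34 and -0.40. Of 13 lipid handling genes 1, Cd36, was higher in both, and the medians were 0.15 and -0.01. The summed lipid list, led by Apoe, had log2 ratios of -0.51 (-0.55 to -0.46) and -0.35 (-0.40 to -0.30). Npc2, a lysosomal cholesterol carrier, had log2 ratios of 0.08 and 0.22.

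Among stress and activation genes, cytokine and NF-kB targets had medians of -0.10 and -0.22 over 24 genes and none passed the fold in both. Nfkbia, the inhibitor of NF-kB, had log2 ratios of 0.19 and -0.24, and Cd83 had 0.14 and -0.33. Immediate-early genes had -0.05 and -0.29 over 22 genes, with Jun at 0.40 and 0.19 and Fos at -0.20 and -0.37. Heat shock genes had -0.39 and -0.10 over 15 genes, with the chaperones Hspa5 at -0.50 and -0.23 and Hsp90ab1 at -0.39 and -0.08. Checkpoint ligands and suppressive mediators had 0.35 and 0.17 over 9 genes, with Sirpa, a receptor for CD47, at 0.65 and 0.35 and Lgals9, galectin 9, at -0.77 and -0.57. In the naive-labelled library 3 barcodes held 50.9% of the Lgals9 UMIs.

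Cytosolic ribosomal protein genes had medians of -0.13 in the heterozygous library and 0.36 in the null library over 70 genes, with Rplp1 at log2 ratios of 0.21 and 0.45 and Rpl13a at 0.02 and 0.14. Nuclear-encoded oxidative phosphorylation genes had 0.10 and 0.40 over 35 genes, with Cox4i1 at -0.03 and 0.03 and Atp5b at 0.07 and 0.15. Cell cycle genes had -0.28 and 0.45 over 13 genes, the latter turning to -0.096 with equal weight per barcode, with the tubulins Tubb5 at -0.03 and 0.59 and Tuba1b at -0.81 and 0.34. No member of these 3 lists passed the fold in both.

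Glycolysis and hypoxia genes had medians of -0.26 and -0.08 over 16 genes, with Pkm at -0.21 and 0.03 and Aldoa at -0.17 and -0.02. Mitochondrially encoded genes, which the selection limits, had -0.13 and -0.01 over 9 genes, with mt-Rnr2 at 0.52 and 0.53 and mt-Cytb at -0.06 and -0.01. Ferritin, iron and oxidative stress genes had -0.20 and -0.19 over 13 genes, of which 1, the iron-binding Lcn2, was lower in both. Lcn2 stood at 361, 13.4 and 61.7 CPM, with 95.3% of its naive-labelled UMIs in 3 barcodes, and Sqstm1, an autophagy receptor, had log2 ratios of 0.16 and -0.19. Matrix, S100 and cytoskeleton genes had -0.55 and 0.03 over 20 genes, with 1 member lower in both. This was Vim, the intermediate filament vimentin, at 1190, 478 and 586 CPM, with 59.2% of its naive-labelled UMIs in 3 barcodes. Tmsb4x had log2 ratios of -0.15 and 0.25 and Actb of -0.41 and 0.06.

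**Figure D3:**
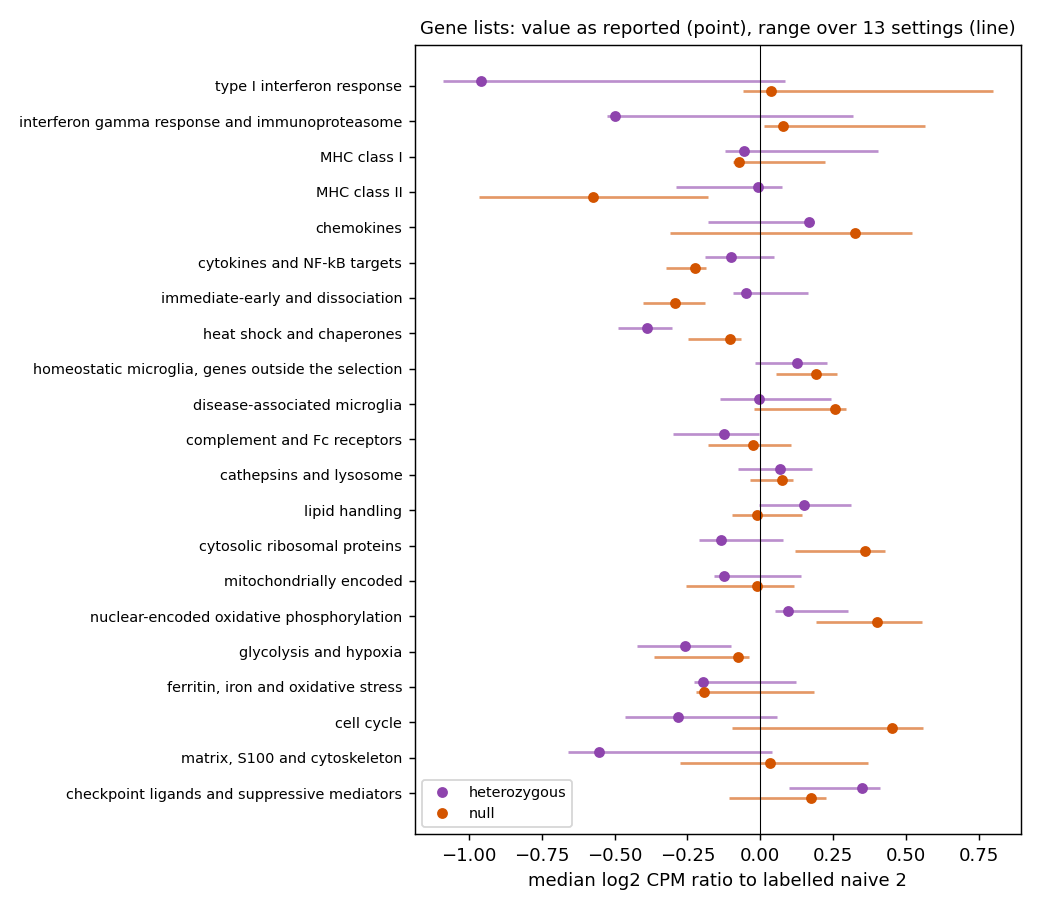
Median log2 CPM ratio to the naive-labelled library of 21 gene lists in the heterozygous and null libraries (points), with the lowest and highest median over the settings that keep the same libraries, fold and UMI minimum and test at least 5480 genes, 13 at most (lines). The type I interferon list spans -1.09 to 0.08 in the heterozygous library, the widest span of the list medians in that library.

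The genes lower in both carried vessel transcripts. The 12 leading ones included Darc (Ackr1), an atypical chemokine receptor of venules, Apln, the vessel peptide apelin, and 3 basement membrane genes, Lamb1, Lama4 and Col4a1. Darc had 97 UMIs in the naive-labelled library, 0 in the heterozygous library and 1 in the null library. With the 0 set to 3 counts, its heterozygous log2 ratio was -5.76, and the counting interval reached up to -5.44. Apln had 74, 2 and 0 UMIs and Lamb1 had 62, 4 and 0. Col4a1 stood at 1.21, 51.9, 313, 5.69, 32.6 and 12.7 CPM in naive 1, metastasis 1, the naive-labelled library, the library labelled metastasis 2, the heterozygous and the null library. The naive-labelled library was the highest of the 6.

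The other leading genes were Gimap4, a guanosine triphosphatase of the GIMAP family, Lrg1, a secreted glycoprotein, Tmem252, Trp53i11, Prkcdbp (Cavin3) of caveolae, Ctgf (Ccn2), a matrix-associated growth factor, and 8430408G22Rik (Depp1). They had between 45 and 134 UMIs in the naive-labelled library, between 5 and 16 in the heterozygous and between 1 and 6 in the null library. In the naive-labelled library 3 barcodes held between 82.2% (8430408G22Rik) and 100% (Darc, Apln and Ctgf) of the UMIs of the 12 leading genes.

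Of 12 endothelial markers 11 were tested, 5 were lower in both, against 1.96% of all genes, and none was higher in both. Cldn5, claudin 5, was at 456 CPM in the naive-labelled library, 80.3 in the heterozygous library and 42.7 in the null library, and at 0 UMIs in the other 3. Egfl7, an endothelial matrix protein, stood at 281, 66.9 and 31.6 CPM, Ctla2a, a protease inhibitor, at 532, 186 and 33.2, and the adhesion molecule Pecam1 at 104, 43.5 and 23.7. The fifth was Esam, another adhesion molecule, with 97.5% of its naive-labelled UMIs in 3 barcodes. With at least 5 marker UMIs Cldn5, Egfl7 and Pecam1 turned to log2 ratios of 1.33, 1.33 and 0.82 in the heterozygous library and of 0.50, 0.29 and 0.069 in the null library. The summed endothelial list gave 2562 CPM in the naive-labelled library, 1374 in the heterozygous library and 1081 in the null library, and at most 336 in the other 3. In the naive-labelled library 2 barcodes held 71.5% of the 1825 UMIs of this list. Barcodes with at least 10 endothelial UMIs numbered 9, 12 and 6 in the naive-labelled, heterozygous and null libraries. Here fewer or shallower barcodes of another cell type and a lower level per cell cannot be told apart.

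Markers of other cell types were summed over the same barcodes, in the order naive-labelled, heterozygous and null. Vessel wall (mural) markers were at 424, 528 and 326 CPM, against 2.42 to 11.4 in the other 3 libraries. Astrocyte markers were at 588, 422 and 198 CPM, choroid plexus and ependymal markers at 1427, 969 and 429, neuron markers at 147, 81.1 and 9.50, and oligodendrocyte lineage markers at 204, 185 and 128. These sums rested on few barcodes in the naive-labelled library. There 1 barcode held 87.1% of the 909 UMIs of Ttr, the leading choroid plexus gene, and 1 barcode held 97.9% of the 94 UMIs of Npy, the leading neuron gene.

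Among blood and immune markers, border-associated macrophage genes were at 567, 584 and 423 CPM, dendritic cell genes at 344, 242 and 272, and B cell genes at 124, 163 and 158. NK and T cell genes were at 33.7, 41.8 and 111 CPM, erythrocyte genes at 14, 70.2 and 9.50, and E0771 carcinoma genes at 390, 56.0 and 85.5. The carcinoma sum of the naive-labelled library was mostly Lcn2, which the neutrophil list holds too. None of the 12 endothelial and 10 mural markers was at 0 in the 3 compared libraries, while between 5 and 8 of the endothelial ones were at 0 in the others. The part of these cells in the lower set was not tested.

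The transcripts of the lower set lay in very few barcodes. For 118 of the 138 genes, 3 barcodes held over 50% of the UMIs in the naive-labelled library. Over all 138 genes, 3 barcodes held 9657 of 13181 UMIs (73.3%), against 29.4% for the top 3 of the heterozygous and 27.4% for the top 3 of the null library. The first 2 had 49921 and 23889 UMIs in all, with 4 UMIs of the microglial markers and 890 and 414 of the endothelial list. The third had 6340 UMIs, 3 of the microglial markers, 215 of the astrocyte list and 487 of Apod.

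The first 2 barcodes also resembled each other in sequence. One ended in an unread base and was otherwise equal to the other with 1 base missing. Pairs of this kind numbered 9 in the naive-labelled library, 10 in the heterozygous library and 2 in the null library, and in 5, 5 and 1 of them both barcodes were counted as microglia. Whether such pairs come from 1 bead was not tested.

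**Figure D4:**
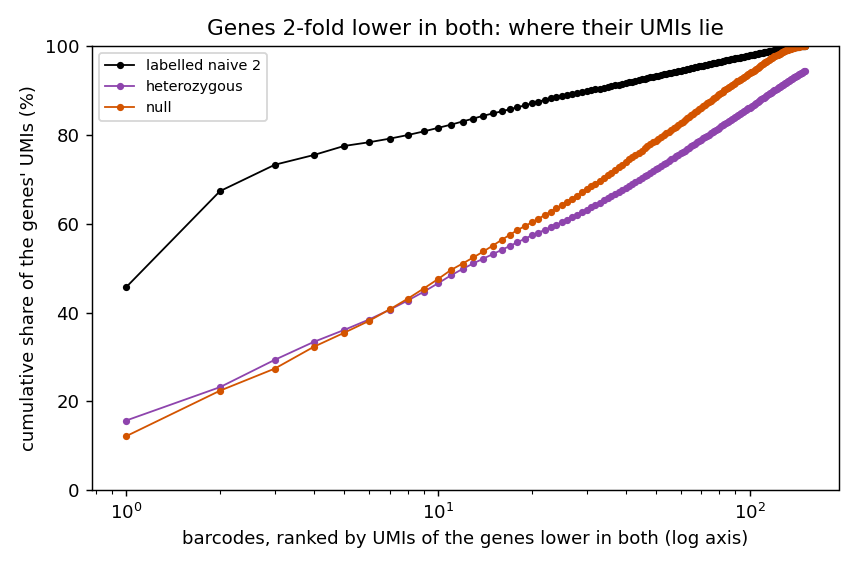
Cumulative share (%) of the UMIs of the 138 genes lower in both, by barcode rank (log axis), in the naive-labelled, heterozygous and null libraries. The naive-labelled curve reaches 73.3% at the third barcode, where the heterozygous and null curves stand at 29.4% and 27.4%.

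The count of lower genes was smaller under settings that left out some or all of these 3 barcodes together with others. With at least 5 marker UMIs, which left out all 3 and kept 134, 211 and 139 barcodes in the 3 libraries, it was 24, of which 13 were shared with the 138. It was 35 when barcodes with at least 100 endothelial UMIs were left out, 20 of them shared. That rule, chosen after seeing the data, did not remove the third barcode, which had 6 endothelial UMIs, and removed 3 barcodes from the naive-labelled library, 4 from the heterozygous and 2 from the null library. Leaving out the top 3 barcodes of each gene in each library gave 15 lower genes, with the median of all tested genes at 0.22 in the heterozygous library. The count of higher genes under the same settings was 107, 83 and 113.

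Of 15 settings that kept the libraries, the fold and the UMI minimum, 13 tested at least 5480 genes each, and under these 13 settings 4 of the 74 higher genes and 2 of the 138 lower genes were called every time. The other 2 settings tested far fewer genes, and no gene was called in all 15. Thinning each barcode to 800 UMIs left 1464 genes and shared 1 higher and 2 lower genes with the reported sets. Leaving out barcodes with at least 5 UMIs of other cell types left 306 genes and shared none. The 6 genes called under all 13 were singled out by that count after their values were seen. The higher ones were Mrps31, Npl, G530011O06Rik and Hp. The lower ones were Pde4b and Rcan1.

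Pde4b, a phosphodiesterase that breaks down cyclic AMP, was at 160 CPM in naive 1, 226 in metastasis 1, 225 in the naive-labelled library, 96.7 in the library labelled metastasis 2, 81.1 in the heterozygous library and 72.8 in the null library. Its log2 ratios were -1.47 (-1.85 to -1.10) and -1.63 (-2.13 to -1.14). Rcan1, a regulator of calcineurin, was at 39.9, 12.1, 94.0, 22.7, 41.8 and 26.9 CPM in the same order, so that the naive-labelled library was the high one. The null value lay within the range of the other 3 unmodified libraries and the heterozygous value just above it. Its log2 ratios were -1.17 (-1.73 to -0.62) and -1.81 (-2.67 to -1.02).

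**Figure D5:**
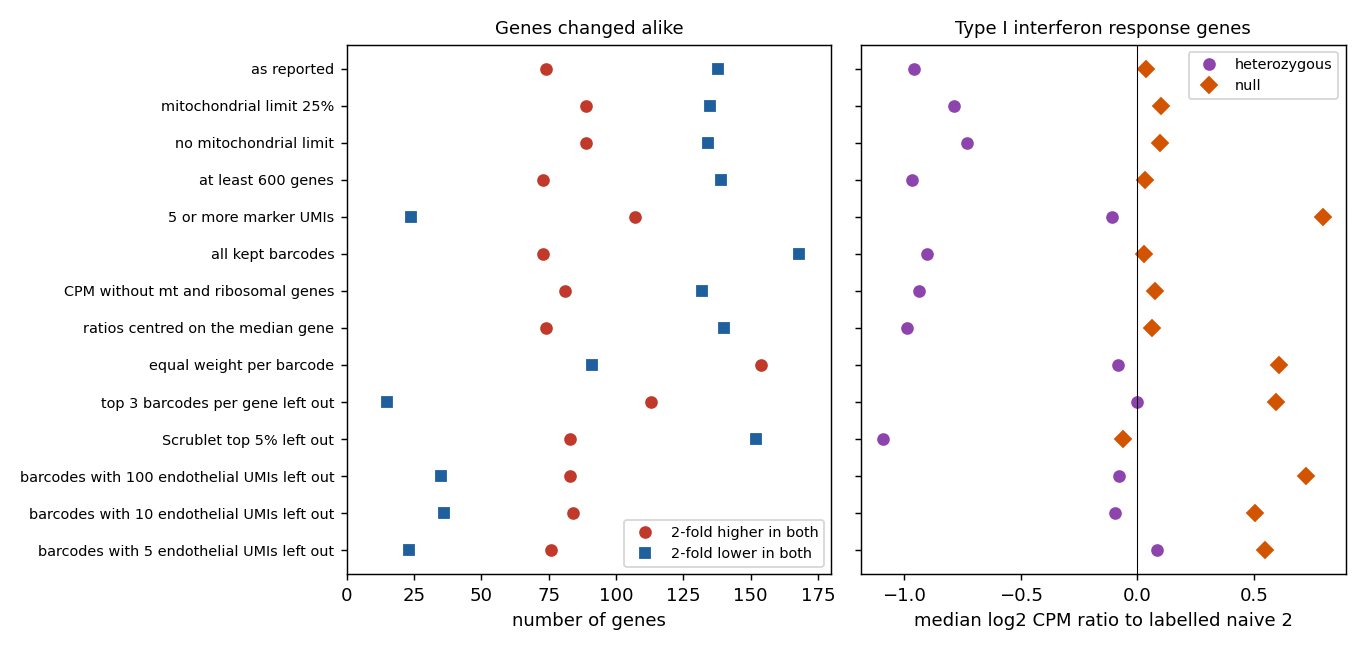
Left, number of genes at least 2-fold higher or lower in both mutant libraries as reported and under the 13 other settings that tested at least 5480 genes; right, median log2 CPM ratio of the type I interferon list in each mutant library under the same settings. Over the settings drawn, the lower count ranges from 15 to 168 and the heterozygous interferon median from -1.09 to 0.08. The 2 settings not drawn gave 13 and 4 lower genes.

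Changing the reference changed which genes were called. Against the library labelled metastasis 2, 797 genes were higher and 219 lower in both mutant libraries, and 26 of the 74 higher genes and 1 of the 138 lower genes were among them. Against naive 1, sequenced on the other instrument, 578 were higher and 125 lower, and 21 and 4 were shared. With these references 9 of the 74 higher genes were called each time, namely Ngp, Npl, Znf512b, Uvssa, Hp, 2300009A05Rik, Hscb, Plac8 and Esyt2. Plac8, a cysteine-rich protein of monocytes and granulocytes, was the best counted of the 9 and stood at 9.67, 250, 218, 11.4, 481 and 543 CPM in naive 1, metastasis 1, the naive-labelled library, the library labelled metastasis 2, the heterozygous and the null library. Summed monocyte markers, a list that includes Plac8, were at 1012 CPM in the naive-labelled library, 1191 in the heterozygous library and 1576 in the null library, and at 272, 1112 and 102 CPM in naive 1, metastasis 1 and the library labelled metastasis 2. Their part in the Plac8 levels was not tested.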

How the data were processed

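Drop-seq UMI counts per gene and barcode were deposited by the authors as 1 table per library. STAR, Seurat and the mm10 build are named in the submitters' processing notes, with no role or version. The counts were used as deposited, and a gene missing from a table was set to 0. All values were computed in Python 3.11.15 with numpy 2.4.6, pandas 2.3.3 and scipy 1.17.1. UMIs were summed over microglial barcodes and divided by the library's summed UMIs (CPM). Log2 ratios carry exact conditional 95% intervals, which cover counting error only, and a library at 0 was set to 3 counts. With 1 library per group no test was possible. A gene was called at 2-fold in both mutant libraries among genes with at least 50 UMIs. No doublets were removed as reported. Leaving out the 5% with the highest Scrublet score (scanpy 1.11.5) was an alternative. The ratio code was tested on simulated data.

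Named genes were Cx3cr1 and Cxcl10, up to 12 genes per direction by the smaller of the 2 absolute log2 ratios, and, for each of 21 gene lists and 14 marker lists, up to 4 members called alike or otherwise the 2 with the most UMIs. One gene that this rule names is not reported here. The members and lists were chosen with earlier results of these data known. Promoters came from RefSeq (GRCm38.p6) and gene coordinates from GENCODE (GRCm38).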

Additional observations from a re-analysis of the deposited data

Results flagged for a closer look

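Genes that passed 2-fold in opposite directions in the heterozygous and null libraries numbered 7, and with 1 library per genotype the difference was not tested. Higher in the heterozygous and lower in the null library were Hbb-bs, a beta globin (log2 ratio 1.90 and -1.24), Pik3ip1, an inhibitor of phosphoinositide 3-kinase (1.92 and -1.26), Smpd4, a sphingomyelinase (1.22 and -1.56), and Trp53inp1, a p53 target (1.19 and -1.91). Lower in the heterozygous and higher in the null library were the interferon-inducible Ifi205 (-1.33 and 1.07), Slfn4 of the Schlafen family (-1.01 and 1.01) and Ube2c, a ubiquitin-conjugating enzyme of mitosis (-1.48 and 1.66). Hbb-bs had 8, 50 and 3 UMIs in the naive-labelled, heterozygous and null libraries, and summed erythrocyte markers came to 70.2 CPM for the heterozygous library and to 9.50 CPM for the null one. The part of red cell RNA was not tested. Pik3ip1 was the best counted, with 27, 171 and 10 UMIs.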

How the results depend on the processing

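No paired analysis was possible because each genotype has 1 library. There were 21 alternatives, of which 3 (leaving out barcodes with at least 100, 10 or 5 endothelial UMIs) were added after seeing the data. The 74 higher genes became 154 with equal weight per barcode, 13 with barcodes thinned to 800 UMIs, 113 without the top 3 barcodes per gene, 4 without barcodes with 5 UMIs of other types (306 genes tested), 246 at 20 UMIs, 20 at 100 UMIs, 356 at 1.5-fold, 17 at 3-fold, 797 over the library labelled metastasis 2 and 578 over naive 1. The 138 lower genes became 24 with 5 marker UMIs, 91 with equal weight, 13 thinned, 15 without the top 3 barcodes, 4 without other-type barcodes, 282 at 20 UMIs, 57 at 100 UMIs, 389 at 1.5-fold, 72 at 3-fold, 219 over metastasis 2, and 35, 36 and 23 without barcodes with 100, 10 and 5 endothelial UMIs. Other counts stayed within 1.5 times, but the genes behind them could differ. At a mitochondrial limit of 25%, 89 genes were higher and 135 lower, of which 26 and 95 were among the reported sets. Without a mitochondrial limit 89 were higher and 134 lower, of which 24 and 85 were among the reported sets. Fewer genes tested accounts for part of the fall under thinning and the other-type limit. The cause of the other moves was not tested. The median of all genes moved by over 0.1 without the top 3 barcodes (heterozygous 0.22), over metastasis 2 (0.16 and 0.09) and over naive 1 (0.26 and 0.20).

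Sign changes were looked for among 73 named genes. Ratios under 2-fold as reported are not listed, and some of these changed sign too. Heterozygous Cxcl10, at 132 CPM, stood above the library labelled metastasis 2, at 11.4 CPM. Log2 ratios that were at least 2-fold as reported and changed sign are given as heterozygous and null, and the cause was not tested. With 5 marker UMIs they were Col4a1 1.37 and 0.16, Gbp2 0.98 and 1.17, Cldn5 1.33 and 0.50, Egfl7 1.33 and 0.29, Pecam1 0.82 and 0.069, Ctla2a 1.57 (heterozygous) and Lcn2 1.55 (null). Without barcodes with 100 endothelial UMIs they were Gbp2 0.90 and 1.10, Lcn2 1.48 (null) and, in the heterozygous library, Cldn5 0.75, Egfl7 0.92, Ctla2a 0.91 and Pecam1 0.23. With the limit at 10 they were Gbp2 0.84 and 0.65 and Lcn2 1.80 (null). With the limit at 5 they were Gbp2 0.87 and 0.37 and, in the null library, Cxcl10 -0.12, Ccl7 -0.45 and Lcn2 2.18. With equal weight they were Gbp4 0.76 and 0.97 and, in the heterozygous library, Gbp2 0.17, Ctla2a 0.0789 and Pecam1 0.088. Without the top 3 barcodes they were Gbp2 0.77 and 0.76 and, in the heterozygous library, Cldn5 0.98, Egfl7 1.07, Ctla2a 0.98 and Pecam1 0.61.

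Over the library labelled metastasis 2 they were G530011O06Rik -1.61 and -1.93, Bcl9 -0.44 and -0.40, Gbp2 1.44 and 1.65, Vim 4.07 and 4.36, Cldn5 2.23 and 1.32, Egfl7 3.56 and 2.48, Ctla2a 5.03 and 2.55, Ifitm3 3.11 (heterozygous) and Lcn2 1.85 (null). Over naive 1 they were Ccl7 -2.76 and -2.70, Gbp2 3.09 and 3.30, Vim 3.17 and 3.46, Cldn5 4.47 and 3.56, Egfl7 3.21 and 2.13, Ctla2a 4.46 and 1.97, Pecam1 2.58 and 1.71, in the heterozygous library Cd36 -0.25 and Ifitm3 1.52, and in the null library Plxna4 -0.61, G530011O06Rik -0.23, Mfsd11 -0.12 and Lcn2 0.87.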
